A study of Mus musculus with 12 samples.

Results

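The comparison described here sets donor-derived cells that had settled in the brain, sorted as GFP+, against the GFP- cells sorted from the same 4 brains. It rests on 8 of the 12 single-cell libraries of the series, 4 GFP+ and 4 GFP-, and each GFP+ library has a GFP- partner from the same mouse. The members were all 8 libraries of the treated mice. In each library the unique molecular identifiers (UMIs, 1 per captured transcript) were summed over every barcode in which 200 genes or more were detected and no more than 10% of UMIs came from the mitochondrial genome.

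All recipients were wild-type C57BL/6J mice conditioned with intraperitoneal busulfan, an alkylating drug that clears the marrow. They then received lineage-negative hematopoietic stem and progenitor cells (HSPCs) of male donors, transduced with a lentiviral GFP vector, either into a vein (i.v.) or into the cerebral ventricles (i.c.v.). Each route is represented by 1 female and 1 male mouse, so that route rests on 2 mice each. All mice, GFP+ and GFP- fractions alike, carried busulfan conditioning and, days after the HSPC dose, an i.v. infusion of bone marrow cells that had not been transduced. A GFP- cell is therefore a cell without detected GFP and may still be of donor origin. The brains were perfused and enzymatically digested, and CD45+ CD11b+ CX3CR1+ cells were sorted by GFP. Because these proteins set the gate, Ptprc, Itgam and Cx3cr1 are not read as findings below, although Itgam is among the lower members counted for complement and for integrins. Age is labelled as 22 to 28 weeks for all 8 libraries, which is younger than the study's text implies for these mice. Replicates are separate animals, with both libraries of a mouse taken from 1 brain.

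Microglia are the resident macrophages of the brain. They arise from yolk sac precursors, renew themselves locally, and hold a tissue-specific state that depends on TGF-β signalling, the CSF1 receptor and the transcription factor Sall1. After conditioning, HSPC-derived macrophages can take up residence among them and become microglia-like cells (MLCs), which share ramified shape and many surface proteins with microglia but come from definitive hematopoiesis. Macrophages at the borders of the brain, the CNS-associated macrophages (CAMs), carry their own markers such as Mrc1, Ms4a7 and Pf4.

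The libraries held 2266 to 4555 kept cells and 4970758 to 16514669 UMIs. The median cell was close to even between the fractions in the i.c.v. mice, with 1058 and 1060.5 UMIs in GFP+ against 920 and 956 in GFP-, and deeper in GFP+ in the i.v. mice, with 3499 and 1307.5 against 1034 and 842. Cells with at least 2000 UMIs made up 31.4% to 60.5% of the GFP+ libraries and 11.4% to 19.0% of the GFP- libraries. EGFP transcripts reached 18.2 to 34.5 CPM (counts scaled to a common library size) in GFP+ and at most 0.130 CPM in GFP-. At least 3 of 9 microglia markers were detected in 51.8% to 68.5% of GFP+ cells and 91.4% to 96.2% of GFP- cells, and at least 3 of 10 CAM markers in 38.2% to 57.2% and 4.45% to 15.9%. Cells with at least 3 markers of a non-macrophage type other than monocytes made up 5.89% and 6.53% of the i.v. GFP+ libraries. In the other 6 they made up 0.681% to 1.22%. The i.c.v. female's GFP- library lay nearest to GFP+ for many genes named below. In that library the Y-linked gene Eif2s3y reached 1.55 CPM, against 4.98 CPM in the i.v. female's GFP- library and at least 69.1 CPM in the 6 libraries from male hosts or of GFP+ cells.

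Counts were compared with edgeR's quasi-likelihood F test with the mouse as a block, and p-values were adjusted by the Benjamini-Hochberg method over all 11756 genes tested. Throughout, fold changes are GFP+ over GFP- on the log2 scale with their standard errors, an adjusted p under 0.05 is called higher or lower, and values per library are given in the order i.v. female, i.v. male, i.c.v. female, i.c.v. male. Of the genes tested, 1605 were higher in GFP+ (13.7%) and 1612 were lower (13.7%), 27.4% in either direction. These shares are the background for every count of a programme's members below. In each list the members described are those with the largest called change at 20 CPM or more, and further genes (Bmpr1a, C1qa, C1qb, C1qc, Csf1r, H2-Aa, Hoxb3, Hoxb4, Hoxb7, Ifnar1, Ifnar2, Ifngr2, Il6st, Ltbp3, Mertk, Plin2, Pmepa1, Psat1, Smad3, Tgfbr1 and Trem2) were added for their role after their values were seen. The fold change was at least 2-fold for 363 of the higher genes and 649 of the lower ones. The direction was the same in 4 of 4 mice for 1593 higher and 1611 lower genes. The GFP+ and GFP- libraries did not overlap for 1349 of the 1605 higher and 1454 of the 1612 lower genes. Absence of overlap was thus usual among called genes and does not set apart the genes described below. In summed libraries, more cells holding a transcript and more transcript per cell cannot be told apart. The number of calls depended on which mice were in the fit. Leaving out the i.v. female left 32 higher and 180 lower genes, leaving out the i.v. male 44 and 253, and leaving out the i.c.v. male 6 and 70, whereas without the i.c.v. female 2167 and 2001 genes passed.

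Across the 57 gene lists that make up the programmes, the Ms4a family, the type I interferon response and the ribosomal proteins had the highest medians, and the microglia homeostatic genes the lowest. Because GFP+ libraries held more deep cells, each programme was also summed over the cells with at least 2000 UMIs alone and over the shallower cells alone. Shares of UMIs given below are unscaled, whereas CPM values carry edgeR's TMM factors, which were 0.859 to 0.967 in GFP+ and 1.04 to 1.16 in GFP- and so place GFP+ higher relative to GFP- than the shares do. The median of a programme exceeded 0.1 in size in 44 of the 57 lists. In 19 of these 44 it kept its sign in both depth groups, in 25 it turned in the shallower cells, and in 1 of those 25, the eicosanoid enzymes, it turned in the deeper cells as well.

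**Figure D1:**
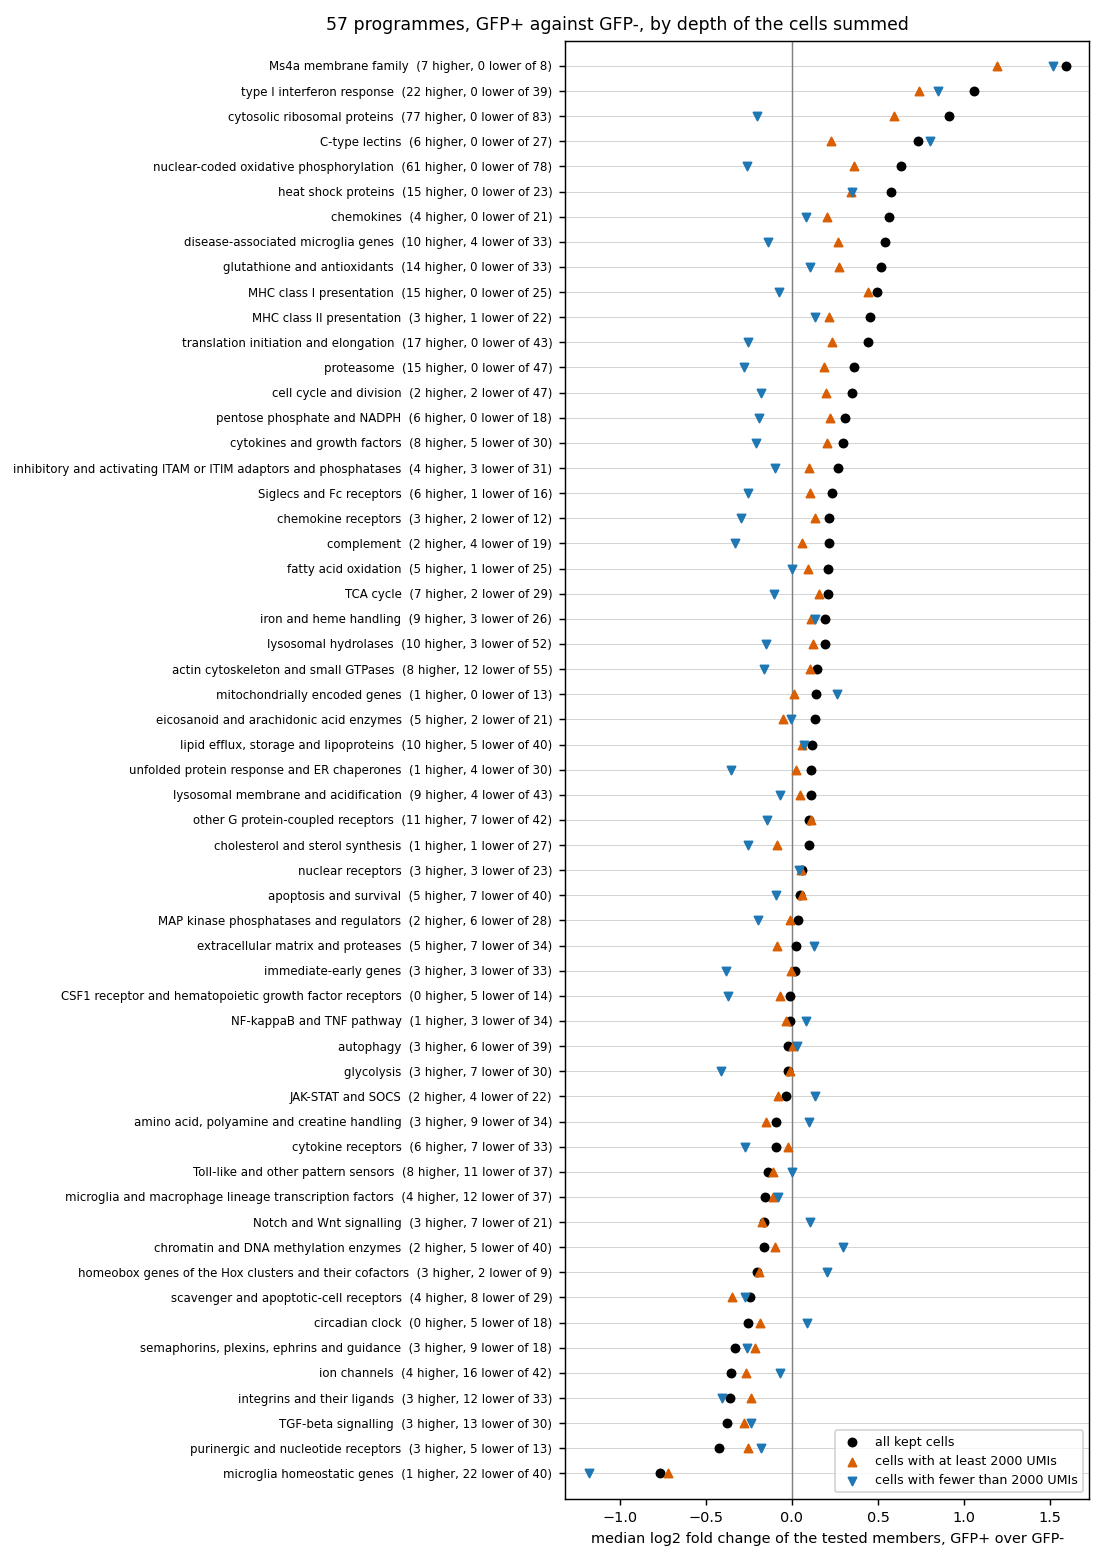
Median log2 fold change (GFP+ over GFP-, x axis) of the tested members of each of 57 programmes (y axis, with the number called higher and lower of those tested), for all kept cells (circles), cells with at least 2000 UMIs (upward triangles) and cells with fewer (downward triangles). Interferon, Ms4a and heat shock genes lie right of 0 and homeostatic genes left of 0 in all 3 sums, whereas the medians of ribosomal and oxidative phosphorylation genes, 0.91 and 0.64 over all cells, lie left of 0 in the shallower cells.

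Regulators of microglial identity included Sall3, the largest fall of the leading genes. Among 37 tested transcription factors of the microglia and macrophage lineage, 12 were lower and 4 higher in GFP+, with a median log2 fold change of -0.16 against 0.01 over all genes tested, the value beside which every median below is to be read. Sall1 (chr8:89027235-89044162 in GRCm38), the zinc-finger factor that holds microglial identity, had 13.3, 6.03, 24.9 and 17.4 CPM in GFP+ and 207, 254, 153 and 223 CPM in GFP- (log2 fold change -3.87 ± 0.44 (SE), adjusted p = 0.00782). Its relative Sall3 had 3.25, 0.118, 0.117 and 0.199 CPM in GFP+ and 69.04, 77.4, 50.8 and 76.8 CPM in GFP- (log2 fold change -6.31 ± 0.70 (SE), adjusted p = 0.00762). For these 2 factors every GFP+ library lay below every GFP- library, and the loss kept its size in deep cells at -3.64 (adjusted p = 0.0186) for Sall1 and -6.13 (adjusted p = 0.0161) for Sall3. Further lower members were Smad3, Ikzf1, Egr1, Bhlhe41, Etv5, Zeb1, Mef2a, Fli1, Bach1 and Hhex. Spic, the factor of red pulp macrophages that handle heme, had 20.6, 53.4, 57.1 and 68.4 CPM in GFP+ and 2.67, 14.4, 23.5 and 25.8 CPM in GFP- (log2 fold change 1.76 ± 0.25 (SE), adjusted p = 0.0114). The i.v. female's GFP+ library held the lowest Spic level of its group, below the i.c.v. GFP- libraries, so the groups overlapped although each mouse moved the same way. Nr4a1, an orphan nuclear receptor induced early on stimulation, and Tfec were further higher members.

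The Hox genes, which pattern the body axis and mark hematopoietic progeny, were at low levels. Of 9 tested members of the Hox clusters and their cofactors, Hoxb7, Hoxb3 and Hoxb4 were higher and Meis1 and Pknox1 lower. Mean CPM was 16.8 ± 2.86 (SD, n = 4) in GFP+ against 5.13 ± 1.72 in GFP- for Hoxb4, 3.81 ± 1.11 against 0.726 ± 0.414 for Hoxb3 and 6.49 ± 1.44 against 1.09 ± 0.792 for Hoxb7. Pknox1, a TALE-class partner of Hox proteins, fell from 49.6, 52.2, 37.3 and 39.8 CPM to 26.3, 31.8, 31.2 and 35.5 CPM (log2 fold change -0.51 ± 0.15 (SE), adjusted p = 0.0476), with no overlap. Chromatin and DNA methylation enzymes had few calls, with 2 higher and 5 lower of 40. The de novo DNA methyltransferase Dnmt3a was lower without overlap, at 77.3, 90.8, 102 and 97.9 CPM in GFP+ against 152, 169.9, 138 and 149 CPM in GFP- (log2 fold change -0.73 ± 0.12 (SE), adjusted p = 0.0158). Hdac9, a class II histone deacetylase, was higher with overlapping groups (log2 fold change 0.59 ± 0.11 (SE), adjusted p = 0.0180). Nuclear receptors had 3 higher and 3 lower of 23, and clock genes 0 higher and 5 lower of 18, namely Hlf, Ciart, Bhlhe41, Csnk1d and Clock. The Clock difference of -0.37 was 0.20 (adjusted p = 0.330) in cells with fewer than 2000 UMIs.

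TGF-β signalling, which restrains microglial activation and keeps homeostatic genes on, had lower members among its receptors, co-receptors and effectors. Of 30 tested members 13 were lower and 3 higher (median -0.38). Eng, the co-receptor endoglin, had 11.7, 9.34, 10.8 and 12.1 CPM in GFP+ and 53.9, 63.5, 39.2 and 52.01 CPM in GFP- (log2 fold change -2.23 ± 0.16 (SE), adjusted p = 0.00387). The fractions were far apart in each mouse. Receptors of the superfamily were also lower, with overlapping groups for Tgfbr1, at -0.57 ± 0.15 for Tgfbr1 (adjusted p = 0.0421), -1.04 ± 0.17 for Acvr2b (adjusted p = 0.0143) and -1.88 ± 0.18 for Bmpr1a (adjusted p = 0.00567). Among the effectors, the inhibitory Smad7, itself a TGF-β target, had 206, 270.0, 408 and 426 CPM against 715, 795, 667 and 819 CPM (log2 fold change -1.25 ± 0.21 (SE), adjusted p = 0.0158), while Smad3 (-0.97 ± 0.16, adjusted p = 0.0157) carries the receptor signal into the nucleus. The 3 higher members were Bambi, a decoy receptor that dampens the pathway (log2 fold change 1.17 ± 0.25 (SE), adjusted p = 0.0251), Pmepa1, an inhibitor that TGF-β induces (log2 fold change 0.93 ± 0.13 (SE), adjusted p = 0.0114), and the latent TGF-β binding protein Ltbp3 (log2 fold change 1.80 ± 0.21 (SE), adjusted p = 0.00808). The median stayed below 0 in both depth groups, at -0.28 in the deeper cells, where 2 members were higher and 5 lower, and -0.24 in the shallower ones, where 3 were higher and 5 lower. As a sum over the list the fall was not shared by all mice. Summed CPM was 3972, 4810.0, 5434 and 5614 in GFP+ against 4637, 5625, 5342 and 5445 in GFP-, higher in GFP+ in both i.c.v. mice. The unscaled share of UMIs in the i.c.v. female was 0.525% in GFP+ and 0.552% in GFP-, so that its direction in this mouse depended on the scale.

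In the CSF1 receptor pathway the ligand gene was called and the receptor gene was not. Csf1r, needed for survival of microglia, had 1297, 1214, 1876 and 1612 CPM in GFP+ and 1855, 2057, 1807 and 1874 CPM in GFP- and did not pass the test (log2 fold change -0.36 ± 0.17 (SE), adjusted p = 0.156). Csf1 (chr3:107741048-107760469), which encodes a ligand of that receptor, had 6.01, 7.45, 12.3 and 9.74 CPM in GFP+ and 55.9, 69.6, 90.5 and 78.4 CPM in GFP- (log2 fold change -3.08 ± 0.10 (SE), adjusted p = 0.000489). The groups were far apart, and the difference was -2.54 (adjusted p = 0.00564) in deep and -3.20 (adjusted p = 7.98e-05) in shallow cells. Csf3r, the G-CSF receptor, Pik3r1, Spry1 and Csf2rb2 were also lower, making 0 higher and 5 lower of 14.

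Inflammatory signalling did not move as a block. In the NF-κB and TNF list 1 member was higher and 3 lower of 34. Tnf, the cytokine at its head, had 171, 233, 179 and 204 CPM in GFP+ and 287, 388, 342 and 497 CPM in GFP- (log2 fold change -0.93 ± 0.13 (SE), adjusted p = 0.0114), with every GFP+ library below every GFP- library. The feedback inhibitor Tnfaip3 (-0.49 ± 0.10, adjusted p = 0.0218) was lower too, and its groups overlapped. JAK-STAT genes had 2 higher and 4 lower of 22, with the feedback inhibitor Socs3 lower and overlapping between groups (log2 fold change -0.83 ± 0.16 (SE), adjusted p = 0.0212). MAP kinase regulators had 2 higher and 6 lower of 28, including the phosphatases Dusp8 (log2 fold change -1.49 ± 0.12 (SE), adjusted p = 0.00470) and Dusp7 (log2 fold change -0.80 ± 0.10 (SE), adjusted p = 0.00952). Notch and Wnt genes had 3 higher and 7 lower of 21. The Wnt receptor Fzd7 was higher with overlap (log2 fold change 1.24 ± 0.16 (SE), adjusted p = 0.00952) and so was the co-receptor Lrp6 (log2 fold change 0.84 ± 0.12 (SE), adjusted p = 0.0110), whereas the co-receptor Lrp5 was lower (log2 fold change -0.85 ± 0.17 (SE), adjusted p = 0.0234).

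The type I interferon response rose as a programme. Interferon-stimulated genes are switched on by a complex of STAT proteins with IRF9 and encode antiviral effectors. Of 39 tested members 22 were higher and 0 lower (median 1.06). Without the i.v. female, the i.v. male or the i.c.v. male 0 members passed, and the medians were 0.88, 0.76 and 1.07. Their promoters commonly hold the interferon-stimulated response element, 2 GAAA blocks separated by any 2 bases (GAAA, NN, GAAA). The 150 bases upstream of the start site are shown for the 3 interferon genes described with values below in which a match was found. They are shown because this is the element through which the pathway is known to act. The search described below also found it in Ifit1, Ifit3 and Oas1a, among others not shown. Sequences are from RefSeq (GRCm38), written 5′ to 3′ on the minus strand, on which all 3 genes lie, with the matching bases in capitals, either as read or as the reverse complement.
Bst2 chr8:71537473-71537622: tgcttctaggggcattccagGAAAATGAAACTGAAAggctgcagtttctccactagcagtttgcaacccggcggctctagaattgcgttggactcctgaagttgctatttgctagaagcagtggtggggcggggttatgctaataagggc
Rsad2 chr12:26456453-26456602: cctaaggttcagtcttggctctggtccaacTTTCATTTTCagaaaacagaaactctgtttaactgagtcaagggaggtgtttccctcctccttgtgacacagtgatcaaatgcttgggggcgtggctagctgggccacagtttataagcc
Ifi207 chr1:173741810-173741959: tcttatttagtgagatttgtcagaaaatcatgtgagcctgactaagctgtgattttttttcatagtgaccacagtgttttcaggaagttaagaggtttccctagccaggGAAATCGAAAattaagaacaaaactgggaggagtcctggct
The Bst2 window holds 2 overlapping matches, the first beginning 130 bases before the start. In the Rsad2 window the match lies on the opposite strand and begins 120 bases before the start, and in Ifi207 it begins 41 bases before it. A search of both strands ran from 250 bases before to 50 bases after the start. It found the element in 3.37% of the 9055 tested genes with a promoter sequence. The share was 5.17% of 1258 higher genes and 2.33% of 1204 lower genes. In the interferon list 17 of 29 tested members held the element (58.6%), and so did 9 of the 16 called higher (56.25%).

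Bst2, the tetherin that holds budding virus at the membrane, had 1301, 1214, 1284 and 1331 CPM in GFP+ and 249.6, 302, 695 and 412 CPM in GFP- (log2 fold change 1.75 ± 0.26 (SE), adjusted p = 0.0122). The GFP+ libraries lay close together, whereas the i.c.v. female stood highest among GFP-. Rsad2, which encodes the antiviral enzyme viperin, had 29.1, 78.4, 29.3 and 30.4 CPM against 9.43, 12.7, 19.2 and 7.60 CPM (log2 fold change 1.71 ± 0.32 (SE), adjusted p = 0.0197). Here the i.v. male's GFP+ library stood apart and the groups did not overlap. Ifi207, of the interferon-inducible DNA sensor cluster on chromosome 1, had 286, 334, 203 and 292 CPM against 56.6, 74.7, 186 and 113 CPM (log2 fold change 1.51 ± 0.38 (SE), adjusted p = 0.0344), and its neighbour Ifi204 had 215, 191, 152 and 190.4 CPM against 64.6, 54.8, 118 and 66.98 CPM (log2 fold change 1.36 ± 0.25 (SE), adjusted p = 0.0196). Neither gene overlapped between groups, although in the i.c.v. female the 2 fractions lay close for Ifi207. The genes of this cluster share sequence, so that reads may be divided among them uncertainly. The other higher members included the Ifit genes Ifit1, Ifit2 and Ifit3, the Oas genes Oas1a, Oasl1 and Oasl2, Mx1, Usp18 and Irf9. In the shallower cells 20 of the tested members were higher and 0 lower (median 0.85), and in the deeper cells 4 and 0 (median 0.74), with 33 of the 34 members tested in both groups positive in both. The list's share of UMIs was 0.416%, 0.374%, 0.264% and 0.309% in GFP+ and 0.172%, 0.151%, 0.234% and 0.166% in GFP-. In the deeper cells of the i.c.v. female the unscaled share was nearly level, with 0.282% in GFP+ and 0.289% in GFP-.

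Heat shock proteins, chaperones that respond to proteotoxic stress and to tissue dissociation, had 15 higher and 0 lower of 23 (median 0.58). Hspa1b, an inducible HSP70, had 58.7, 685, 608 and 733 CPM in GFP+ and 16.01, 259, 406 and 313 CPM in GFP- (log2 fold change 1.26 ± 0.21 (SE), adjusted p = 0.0159). Both libraries of the i.v. female were far below those of the other mice, so the groups overlapped while each mouse moved the same way. The same held for Dnaja1, its J-domain co-chaperone, at 361, 1172, 881 and 1340.3 CPM against 182, 452, 702 and 596 CPM (log2 fold change 0.97 ± 0.19 (SE), adjusted p = 0.0223). For Hspa1b the difference was 0.92 (adjusted p = 0.0374) in deep cells and 1.67 (adjusted p = 0.00500) in shallow ones. The heat shock element (GAA, NN, TTC, NN, GAA, either strand) was found in 4 of 18 tested members with a promoter (22.2%). These were Hspe1, Dnajb6, Hsph1 and Chordc1, and no match was found for Hspa1b or Dnaja1. Of all tested promoters 0.364% held the element. Immediate-early genes, which respond to dissociation too, had 3 higher (Nr4a1, Fosl2 and Fos) and 3 lower (Socs3, Egr1 and Ier5) of 33. Their direction as a sum depended on the scale. The unscaled share of UMIs was 2.61%, 2.43%, 2.61% and 3.02% in GFP+ against 3.51%, 2.89%, 2.82% and 3.31% in GFP-, lower in GFP+ in 4 of 4 mice, whereas summed CPM was 29834, 28332, 27029 and 32729.8 against 31073, 24898, 27279 and 30543, lower in GFP+ in 2 of 4 mice.

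**Figure D2:**
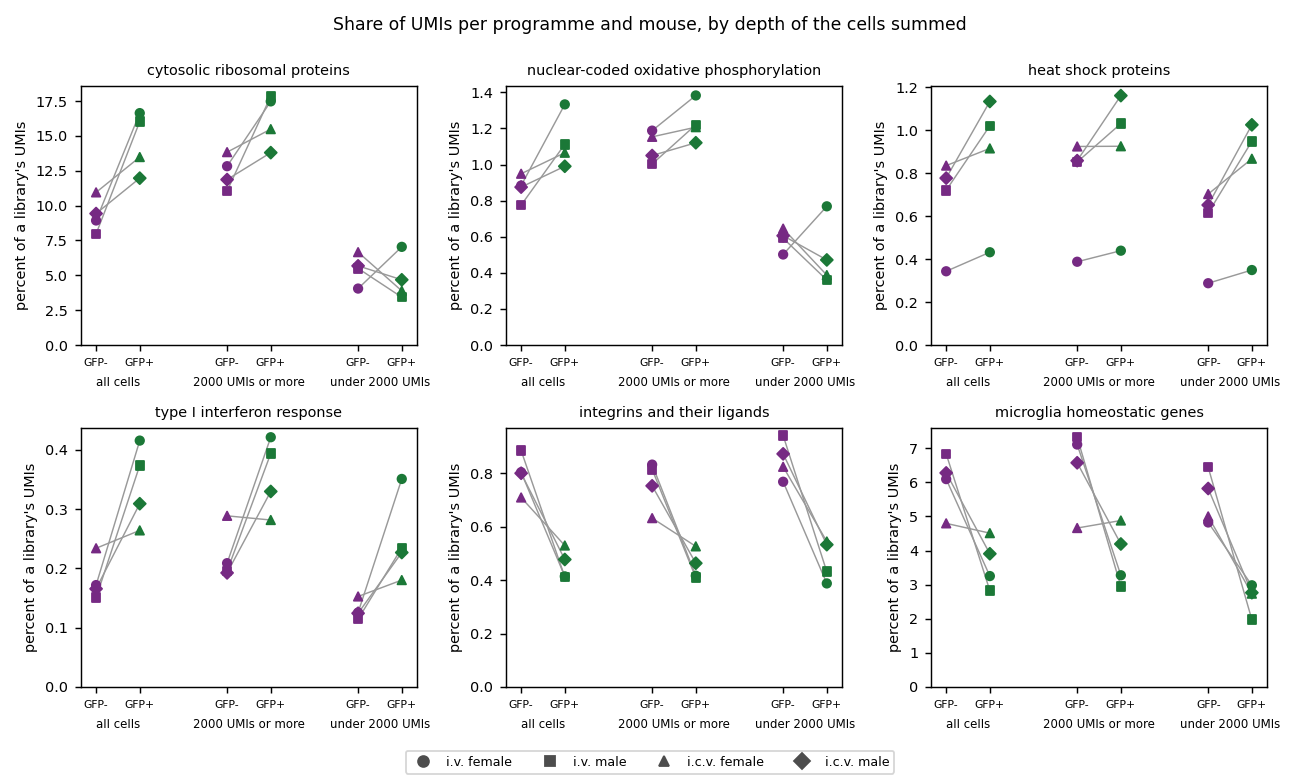
Unscaled percent of each library's UMIs (y axis, from 0) that fell on the genes of 6 programmes, for GFP- (purple) and GFP+ (green) libraries joined by mouse, over all kept cells, cells with at least 2000 UMIs and cells with fewer. Lines of the ribosomal panel rise in 4 of 4 mice over all cells and in deep cells but in 1 of 4 in shallow cells, whereas the integrin lines fall in all 4 mice in each of the 3 sums.

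Microglia read ATP and adenosine through purinergic receptors. Of 13 tested purinergic genes 5 were lower and 3 higher (median -0.42). Adora3, the adenosine A3 receptor, had 5.11, 2.72, 5.86 and 3.48 CPM in GFP+ and 54.1, 58.9, 36.9 and 57 CPM in GFP- (log2 fold change -3.59 ± 0.29 (SE), adjusted p = 0.00470). The highest GFP+ library lay far below the lowest GFP- library. P2ry13 and Gpr34 were lower as well, while P2ry14, Adk and P2rx4 were higher. Among 12 chemokine receptors, Cxcr4, the CXCL12 receptor that retains blood stem cells in the marrow, had the largest rise of all genes that met the rule for leading genes. Cxcr4 (chr1:128588199-128592293) had 138, 318, 290.3 and 309 CPM in GFP+ and 10.7, 45.2, 130.3 and 72.4 CPM in GFP- (log2 fold change 2.40 ± 0.41 (SE), adjusted p = 0.0159). The lowest GFP+ library, that of the i.v. female, lay just above the highest GFP- library, that of the i.c.v. female. Ccr1, a receptor of inflammatory chemokines, was higher (log2 fold change 1.29 ± 0.30 (SE), adjusted p = 0.0298), and in all 3 of these receptors were higher and 2 lower. Chemokines themselves had 4 higher and 0 lower of 21, namely Cxcl9, Cxcl16, Cxcl12 and Pf4.

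**Figure D3:**
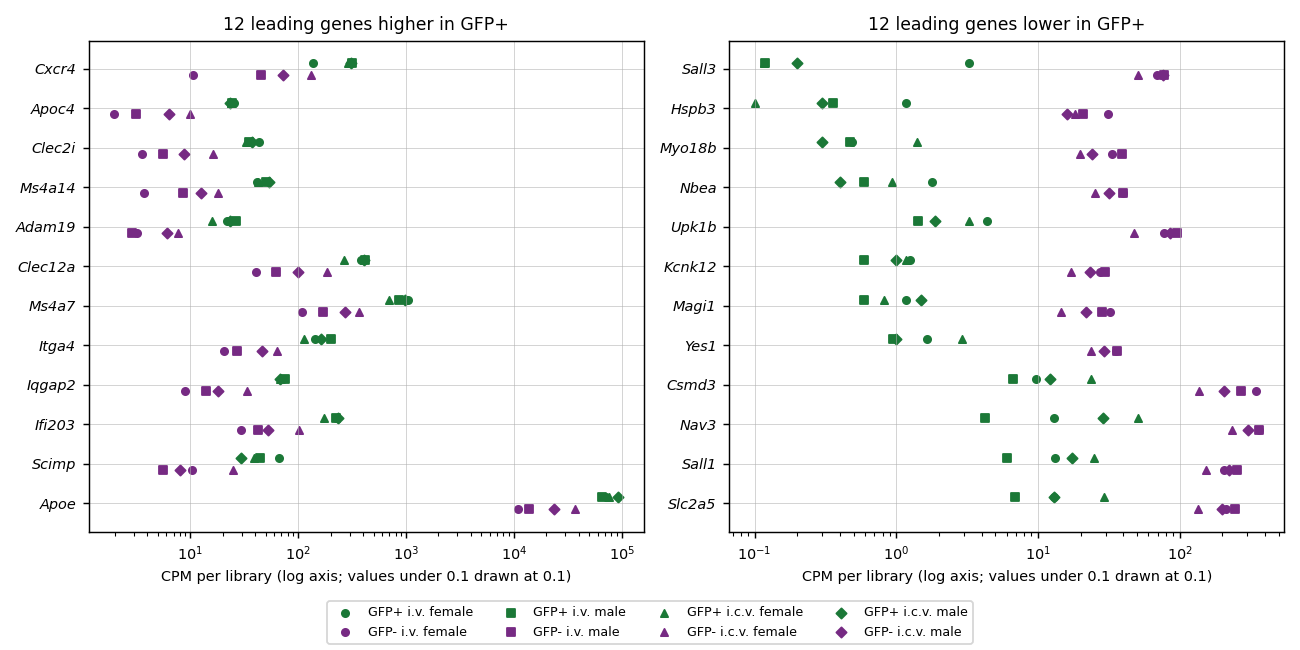
CPM per library (x axis, log scale, values under 0.1 drawn at 0.1) of the 12 genes with the largest rise (left) and the 12 with the largest fall (right) in GFP+ among called genes whose higher group averaged 20 CPM or more. Green marks GFP+ and purple GFP- libraries, and the marker shape gives the mouse. For each of these genes the GFP+ and GFP- libraries do not overlap, and for all but Hspb3 the i.c.v. female (triangle) is the GFP- library nearest to GFP+.

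Receptors coupled to G proteins moved both ways, with 11 higher and 7 lower of 42. Gpr65, a proton-sensing receptor, had 329, 338, 360.1 and 367 CPM against 45.7, 61.9, 189 and 105 CPM (log2 fold change 2.004 ± 0.32 (SE), adjusted p = 0.0145). Adgrg1, the adhesion receptor of yolk sac-derived microglia, had 35.7, 27.4, 71.9 and 57.3 CPM against 220.1, 283, 151 and 230.5 CPM (log2 fold change -2.27 ± 0.37 (SE), adjusted p = 0.0151). Neither of the pair overlapped between groups. The prostaglandin E2 receptor Ptger4 was higher (log2 fold change 1.59 ± 0.39 (SE), adjusted p = 0.0330), and Gpr84, a receptor of medium-chain fatty acids, was lower (log2 fold change -1.50 ± 0.22 (SE), adjusted p = 0.0120).

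Cytokine receptors had 6 higher and 7 lower of 33. The subunits Ifnar1 and Ifnar2 of the type I interferon receptor were both higher (0.81 ± 0.13, adjusted p = 0.0138, and 0.63 ± 0.10, adjusted p = 0.0157), and so was Ifngr2 of the interferon-γ receptor (log2 fold change 0.35 ± 0.10 (SE), adjusted p = 0.0461). Tnfrsf21, a death receptor, was lower (log2 fold change -1.38 ± 0.20 (SE), adjusted p = 0.0116), and so was Il6st, the shared gp130 subunit (log2 fold change -1.17 ± 0.13 (SE), adjusted p = 0.00700). Cytokines and growth factors had 8 higher and 5 lower of 30. Igf1, a trophic factor for neurons and oligodendrocytes, had 96.5, 93.9, 76.9 and 148 CPM in GFP+ and 21.5, 31.6, 57.7 and 39.2 CPM in GFP- (log2 fold change 1.51 ± 0.29 (SE), adjusted p = 0.0206), without overlap. Hgf, the ligand of MET, was higher too (log2 fold change 1.83 ± 0.33 (SE), adjusted p = 0.0172). Pros1, a bridging ligand of the TAM receptors, was lower at 52.2, 45.3, 54.9 and 60.8 CPM against 156, 153, 105 and 132 CPM (log2 fold change -1.35 ± 0.16 (SE), adjusted p = 0.00821). Vegfa was called higher (log2 fold change 1.72 ± 0.42 (SE), adjusted p = 0.0316), yet both libraries of the i.c.v. female, with 482 and 279.8 CPM, exceeded all 6 others, so that the groups overlapped.

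Pattern sensors divided. Of 37 tested, 8 were higher and 11 lower. Tlr8, an endosomal sensor of RNA, had 34.6, 30.9, 26.7 and 32.99 CPM in GFP+ and 5.52, 5.41, 20.8 and 9.14 CPM in GFP- (log2 fold change 1.79 ± 0.39 (SE), adjusted p = 0.0267), whereas Tlr3, the sensor of double-stranded RNA, had 21.3, 13.4, 15.01 and 16.8 CPM against 54.3, 48.7, 31.3 and 42.99 CPM (log2 fold change -1.41 ± 0.14 (SE), adjusted p = 0.00592). Groups did not overlap for either sensor. Cd180, a relative of TLR4, was lower (log2 fold change -1.10 ± 0.10 (SE), adjusted p = 0.00565), and so were Tlr7, Tlr12, Tmem173 (STING), Pycard and the Naip and Nlrp1 genes Naip2, Naip5, Nlrp1a and Nlrp1b, the last of which are close paralogs whose reads may be shared. Cd14, the LPS co-receptor, was higher with overlap (log2 fold change 0.91 ± 0.23 (SE), adjusted p = 0.0341).

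Among C-type lectins 6 were higher and 0 lower of 27. Clec12a, an inhibitory receptor of myeloid cells, had 379.6, 421, 268 and 407 CPM in GFP+ and 40.4, 62.8, 187 and 100.5 CPM in GFP- (log2 fold change 2.14 ± 0.45 (SE), adjusted p = 0.0249), and Mrc1, the mannose receptor, had 513, 600.1, 511 and 719 CPM against 124, 217, 336 and 266 CPM (log2 fold change 1.39 ± 0.24 (SE), adjusted p = 0.0160). Both are CAM markers, and GFP+ lay above GFP- throughout. The 10 CAM markers summed to 2373 to 3324 CPM in GFP+ and 835 to 1748 CPM in GFP-, with 4 of them higher, 0 lower and 6 not called. Their fold changes were positive for 7 and negative for 3, down to -0.94. In the Ms4a family of membrane proteins 7 of 8 tested members were higher and 0 lower (median 1.59). Ms4a14 had 41.7, 50.4, 42.2 and 53.6 CPM against 3.74, 8.58, 18.1 and 12.5 CPM (log2 fold change 2.24 ± 0.33 (SE), adjusted p = 0.0125), and Ms4a6c had 675, 506, 406 and 450.4 CPM against 139, 105, 261 and 161 CPM (log2 fold change 1.67 ± 0.30 (SE), adjusted p = 0.0180). All 7 members tested in both depth groups were positive in both. These genes lie together on chromosome 19 and share sequence, so that reads may be divided among them uncertainly. Siglecs and Fc receptors had 6 higher and 1 lower of 16, with the sialic acid receptor Siglece at log2 fold change 0.53 ± 0.08 (SE), adjusted p = 0.0133 and the Fc receptor chain Fcer1g at log2 fold change 0.58 ± 0.15 (SE), adjusted p = 0.0361. The latter was -0.25 (adjusted p = 0.581) in shallow cells.

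Receptors for debris and apoptotic cells had 4 higher and 8 lower of 29. The TAM receptors went opposite ways: Axl had 229.5, 243, 243 and 246 CPM in GFP+ and 50.4, 57.6, 163 and 82.5 CPM in GFP- (log2 fold change 1.61 ± 0.28 (SE), adjusted p = 0.0167), whereas Mertk had 173, 178, 342 and 222 CPM against 434, 407, 363 and 357 CPM (log2 fold change -0.82 ± 0.22 (SE), adjusted p = 0.0404). The 4 GFP+ libraries were nearly level for Axl and lay above all GFP- libraries, and for neither gene did the groups overlap. Msr1, a scavenger receptor for modified lipoproteins, was higher (log2 fold change 1.44 ± 0.28 (SE), adjusted p = 0.0209). Complement had 2 higher and 4 lower of 19. The C1q chains C1qa, C1qb and C1qc did not pass (0.33, 0.29 and 0.31; adjusted p = 0.116, 0.160 and 0.127). Adaptors and phosphatases of ITAM and ITIM signalling had 4 higher and 3 lower of 31, with the inhibitory Lilrb4a higher (log2 fold change 1.37 ± 0.32 (SE), adjusted p = 0.0294) and the don't-eat-me receptor Sirpa lower (log2 fold change -0.82 ± 0.16 (SE), adjusted p = 0.0222).

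Ion channels were among the lowest programmes, with 16 lower and 4 higher of 42 (median -0.35). Of 41 members tested in both depth groups, 17 were negative in both and 10 positive in both. A further 11 were negative in deep and positive in shallow cells, and 3 the reverse. In shallow cells the mean unscaled share of UMIs was 0.311% in GFP+ and 0.320% in GFP-, and it was higher in GFP+ in 2 of 4 mice. Kcnk12, of the K2P potassium channel family, had 1.24, 0.591, 1.17 and 0.994 CPM in GFP+ and 27.2, 29.8, 17.2 and 23.4 CPM in GFP- (log2 fold change -4.56 ± 0.27 (SE), adjusted p = 0.00305). Cacna1a, the pore subunit of P/Q-type calcium channels, had 5.18, 3.19, 4.46 and 4.47 CPM against 27.8, 25.1, 22.4 and 21.9 CPM (log2 fold change -2.49 ± 0.16 (SE), adjusted p = 0.00309). Both channels were low in all GFP+ libraries, and the groups did not overlap. Orai2 and Orai1, pores of store-operated calcium entry, were lower, whereas Orai3 was higher, as was Kcna3, the potassium channel Kv1.3.

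Among adhesion genes more were lower than higher, and the reverse held for antigen presentation. Integrins and their ligands had 12 lower and 3 higher of 33 (median -0.36). Itgb3, the β3 chain, had 2.14, 1.54, 5.04 and 3.68 CPM in GFP+ and 27.9, 33.4, 20.3 and 25.3 CPM in GFP- (log2 fold change -3.16 ± 0.39 (SE), adjusted p = 0.00851), and the junctional molecule Jam2 had 4.84, 1.77, 7.62 and 3.08 CPM against 38.6, 32.7, 21.4 and 33.8 CPM (log2 fold change -2.96 ± 0.42 (SE), adjusted p = 0.0115). Itga4, the α4 chain used by blood leukocytes to bind VCAM1, went the other way, at 142, 201, 114 and 165 CPM against 20.6, 26.9, 63.7 and 46.5 CPM (log2 fold change 2.08 ± 0.37 (SE), adjusted p = 0.0169). None of these 3 overlapped. Itgal and Vcam1 were the other higher members. The share of UMIs on the list was 0.414%, 0.412%, 0.53% and 0.477% in GFP+ and 0.804%, 0.885%, 0.71% and 0.801% in GFP-, and it was lower in 4 of 4 mice in both depth groups, as was the summed CPM over all kept cells.

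In guidance genes 9 were lower and 3 higher of 18. Plxna4, a semaphorin co-receptor, had 17.1, 15.1, 26.1 and 21.6 CPM against 74.9, 76.1, 56.5 and 67.8 CPM (log2 fold change -1.80 ± 0.21 (SE), adjusted p = 0.00808), while Nrp1, a partner of plexins and of VEGF receptors, was higher (log2 fold change 0.93 ± 0.13 (SE), adjusted p = 0.0114). Matrix and protease genes had 5 higher and 7 lower of 34, from Adam19 (log2 fold change 2.18 ± 0.36 (SE), adjusted p = 0.0150) to Col27a1 (log2 fold change -1.90 ± 0.26 (SE), adjusted p = 0.0109). Actin cytoskeleton and small GTPase genes had 8 higher and 12 lower of 55, with Myo5a, an organelle motor, higher (log2 fold change 1.63 ± 0.23 (SE), adjusted p = 0.0114) and Arhgap5, a GTPase-activating protein, lower (log2 fold change -1.64 ± 0.19 (SE), adjusted p = 0.00782).

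MHC class I presentation had 15 higher and 0 lower of 25 (median 0.49). H2-D1, a classical heavy chain, had 2234, 2246, 1457 and 1702 CPM in GFP+ and 1005, 1011, 1318 and 1055 CPM in GFP- (log2 fold change 0.79 ± 0.21 (SE), adjusted p = 0.0379). H2-M3, which presents formylated peptides, had 128, 111, 105 and 113 CPM against 63.2, 60.1, 82.1 and 60.7 CPM (log2 fold change 0.79 ± 0.13 (SE), adjusted p = 0.0157). Groups were separate for both, by a small margin for H2-D1, whose lowest GFP+ and highest GFP- values both came from the i.c.v. female. The peptide trimming subunits Psmb8 and Psmb9 of the immunoproteasome were higher (0.83 ± 0.21, adjusted p = 0.0349, and 0.93 ± 0.19, adjusted p = 0.0240), and in shallow cells they were -0.21 (adjusted p = 0.590) and 0.35 (adjusted p = 0.248). In deep cells the median was 0.44 with 1 member higher, and in shallow cells -0.08 with 4 higher and 2 lower. MHC class II had 3 higher (H2-DMa, Icosl and Cd86) and 1 lower (March1) of 22. H2-Aa, a classical class II chain, did not pass, with 5994, 6549, 143 and 730.0 CPM in GFP+ and 836, 601, 1127 and 1124 CPM in GFP- (log2 fold change 0.82 ± 1.35 (SE), adjusted p = 0.669). Its level was high in the i.v. GFP+ libraries alone. Summed dendritic cell markers were 373 and 553 CPM in those libraries, 39.6 and 72.3 CPM in the i.c.v. GFP+ libraries and 56.4 to 111 CPM in GFP-, and their part in the class II levels was not tested.

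Metabolic programmes differed in which part of a pathway moved. Glycolysis had 3 higher and 7 lower of 30. Slc2a5, the fructose transporter of microglia, had 12.99, 6.86, 29.3 and 13.02 CPM in GFP+ and 213, 246, 135 and 201 CPM in GFP- (log2 fold change -3.82 ± 0.48 (SE), adjusted p = 0.00894). The highest GFP+ library and the lowest GFP- library both came from the i.c.v. female and were still far apart. Hk2, the inducible hexokinase, had 163, 159.7, 194 and 154 CPM against 333, 277, 251 and 282 CPM (log2 fold change -0.77 ± 0.13 (SE), adjusted p = 0.0166), and Ldhb, the lactate dehydrogenase chain that favours pyruvate, was lower as well (log2 fold change -1.40 ± 0.30 (SE), adjusted p = 0.0249). Gpi1, Tpi1 and Eno1, enzymes of the main chain, were higher.

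In the pentose phosphate and NADPH list 6 were higher and 0 lower of 18. Cybb, the catalytic chain of the phagocyte NADPH oxidase, had 761, 891, 693 and 869 CPM against 139, 160.3, 524 and 264 CPM (log2 fold change 1.78 ± 0.37 (SE), adjusted p = 0.0246). It did not overlap, though the i.c.v. female's GFP- library reached 524 CPM. The partner chain Cyba was higher over all cells (log2 fold change 0.55 ± 0.15 (SE), adjusted p = 0.0414) but -0.39 (adjusted p = 0.293) in shallow cells. Antioxidant genes had 14 higher and 0 lower of 33 (median 0.52). Mgst1, a microsomal glutathione transferase, had 84.6, 64.9, 46.2 and 73.6 CPM against 13.3, 11.8, 34.1 and 23.99 CPM (log2 fold change 1.77 ± 0.38 (SE), adjusted p = 0.0252), and Prdx5, a peroxiredoxin, 517, 446, 363 and 418 CPM against 186, 168, 310.0 and 228 CPM (log2 fold change 0.998 ± 0.23 (SE), adjusted p = 0.0287). The groups were separate for both of these. The list's median was 0.28 in deep cells and 0.11 in shallow ones.

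Lipid genes had 10 higher and 5 lower of 40. Apoe (chr7:19696109-19699188), the main lipoprotein of brain lipid transport, had 71489, 65820.5, 75869.9 and 93383 CPM in GFP+ and 10936, 13692, 37099 and 23454 CPM in GFP- (log2 fold change 2.01 ± 0.32 (SE), adjusted p = 0.0143). The groups did not overlap, and the GFP- level was highest in the i.c.v. female. Its cluster neighbour Apoc4 (log2 fold change 2.31 ± 0.39 (SE), adjusted p = 0.0158) and the lipid droplet coat genes Plin2 (log2 fold change 1.20 ± 0.26 (SE), adjusted p = 0.0267) and Plin3 (log2 fold change 1.39 ± 0.33 (SE), adjusted p = 0.0310) were higher, whereas Mgll, which releases arachidonate from endocannabinoids, was lower (log2 fold change -1.40 ± 0.22 (SE), adjusted p = 0.0136). Eicosanoid enzymes had 5 higher and 2 lower of 21, with Ptgs1 (cyclooxygenase 1) lower (log2 fold change -0.82 ± 0.19 (SE), adjusted p = 0.0302) and Pla2g7, which inactivates platelet-activating factor, higher (log2 fold change 1.82 ± 0.26 (SE), adjusted p = 0.0114). Cholesterol synthesis had 1 higher and 1 lower of 27, and fatty acid oxidation 5 and 1 of 25.

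Iron and heme genes had 9 higher and 3 lower of 26. Cp, the ferroxidase ceruloplasmin, had 169.6, 172, 248 and 217 CPM against 32.4, 42.5, 96.98 and 59.3 CPM (log2 fold change 1.90 ± 0.18 (SE), adjusted p = 0.00553), without overlap, and was 1.44 (adjusted p = 0.0125) in deep and 2.73 (adjusted p = 0.000180) in shallow cells. Blvrb, which reduces biliverdin, and Slc48a1, a heme transporter, were higher (0.94 ± 0.18, adjusted p = 0.0197, and 0.94 ± 0.22, adjusted p = 0.0293). Amino acid genes had 3 higher and 9 lower of 34. Slc1a3, the glutamate transporter GLAST, had 22.5, 9.81, 13.1 and 6.76 CPM against 103, 93.4, 81.1 and 85.03 CPM (log2 fold change -2.90 ± 0.25 (SE), adjusted p = 0.00523). The serine synthesis enzymes Phgdh and Psat1 were both lower (-2.37 ± 0.38, adjusted p = 0.0147, and -1.92 ± 0.26, adjusted p = 0.00971), as was Glul, the glutamine synthetase (log2 fold change -0.76 ± 0.16 (SE), adjusted p = 0.0252).

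Ribosomal and respiratory genes gave the broadest called rise, and it differed with the depth of the cells. Of 83 cytosolic ribosomal proteins 77 were higher and 0 lower (median 0.91), and of 78 nuclear-coded oxidative phosphorylation genes 61 and 0 (median 0.64). Ribosomal protein mRNA took 16.6%, 16%, 13.5% and 12% of UMIs in GFP+ and 8.94%, 7.97%, 11% and 9.43% in GFP-. No GFP+ library fell within the GFP- range. Rps28 had 1433, 1293, 959.7 and 733 CPM against 382, 346, 640.1 and 492 CPM (log2 fold change 1.24 ± 0.30 (SE), adjusted p = 0.0312), and Ndufa3, of complex I, 151, 111, 89.1 and 83.6 CPM against 63.3, 43.4, 60.7 and 50.2 CPM (log2 fold change 0.97 ± 0.16 (SE), adjusted p = 0.0151). In cells with at least 2000 UMIs 7 members of each list were higher, and the medians were 0.59 and 0.36. In shallower cells 0 ribosomal genes were called and the median was -0.20, and 0 respiratory genes were higher, 1 was lower and the median was -0.26. There the share was 7.04%, 3.43%, 3.89% and 4.68% in GFP+ and 4.05%, 5.5%, 6.66% and 5.68% in GFP-, and the i.v. female alone had the higher value in GFP+. Within every library the ribosomal share was larger in the deeper cells. When 500 UMIs were drawn from each cell, 1 ribosomal gene was higher and the median was 0.46. Depth of the cells moved with these rises in each mouse, and its part in them was not tested beyond these sums.

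**Figure D4:**
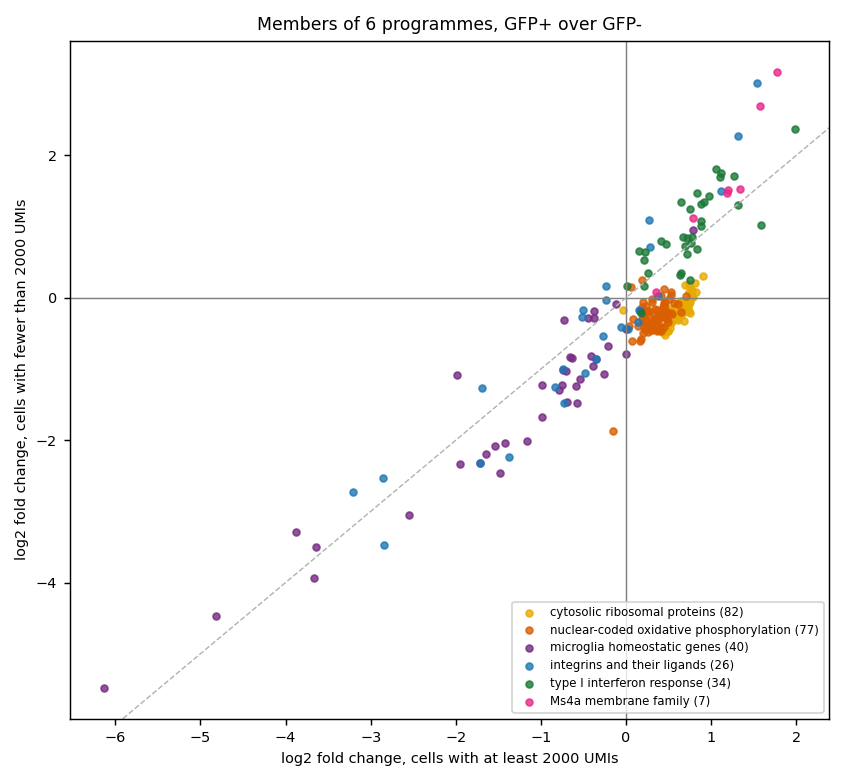
Log2 fold change (GFP+ over GFP-) of each gene in cells with at least 2000 UMIs (x axis) and in cells with fewer (y axis) for 6 programmes, with the number of genes drawn in brackets and the dashed line marking equality. Of 82 ribosomal genes 71 and of 77 oxidative phosphorylation genes 69 lie right of 0 and below 0, whereas 33 of 34 interferon genes lie above 0 and 37 of 40 homeostatic genes below 0 on both axes.

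Translation factors and the proteasome followed the same split. Translation factors had 17 higher and 0 lower of 43 over all cells, 0 and 0 in deep cells and 0 and 1 in shallow cells, with medians of 0.44, 0.23 and -0.25. The proteasome had 15 and 0 of 47, then 2 and 0, then 2 and 2, with medians of 0.36, 0.19 and -0.28. Mitochondrially encoded genes had 1 higher and 0 lower of 13, namely mt-Atp8. The TCA cycle had 7 higher and 2 lower of 29. Pdk1, which shuts pyruvate out of the cycle, was lower at 18.1, 15.5, 34.9 and 21.4 CPM against 89.7, 69.2, 55.6 and 58.2 CPM (log2 fold change -1.64 ± 0.28 (SE), adjusted p = 0.0164), without overlap.

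Lysosomal genes, of interest because donor cells are used to deliver lysosomal enzymes, rose for some enzymes and fell for others. Of 52 hydrolases 10 were higher and 3 lower. Of 50 tested in both depth groups, 16 were positive in both and 16 negative in both. A further 17 were positive in deep and negative in shallow cells, and 1 the reverse. Ctsc, which activates granule proteases, had 1024, 1269, 965 and 1322 CPM in GFP+ and 337, 494, 776 and 619.6 CPM in GFP- (log2 fold change 1.10 ± 0.23 (SE), adjusted p = 0.0240). Galc, the galactosylceramidase, had 81.8, 91.02, 109 and 108 CPM against 29.9, 43.7, 65.4 and 51.1 CPM (log2 fold change 1.08 ± 0.13 (SE), adjusted p = 0.00821). Ctsl, a cysteine cathepsin, was lower at 359, 367, 477 and 505 CPM against 806, 771, 616 and 803 CPM (log2 fold change -0.82 ± 0.17 (SE), adjusted p = 0.0231). All 3 were without overlap. Membrane and acidification genes had 9 higher and 4 lower of 43, with the tetraspanin Cd63 higher (log2 fold change 0.98 ± 0.18 (SE), adjusted p = 0.0183) and the proton pump chain Atp6v0a2 lower (log2 fold change -1.32 ± 0.15 (SE), adjusted p = 0.00773). Autophagy had 3 higher and 6 lower of 39, with the mTORC1 scaffold Rptor lower (log2 fold change -1.25 ± 0.21 (SE), adjusted p = 0.0163), and the unfolded protein response 1 and 4 of 30.

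The microglia homeostatic genes fell as a programme: 22 were lower and 1, Pmepa1, higher of 40 (median -0.76). This list and the disease-associated list are established signatures and overlap the receptor and TGF-β lists above. Upk1b had 4.35, 1.42, 3.28 and 1.89 CPM in GFP+ and 77.9, 95.7, 47.95 and 85.1 CPM in GFP- (log2 fold change -4.78 ± 0.38 (SE), adjusted p = 0.00470), and Nav3, a cytoskeletal guidance protein, 13.1, 4.26, 51.1 and 29.01 CPM against 365, 365, 235 and 305 CPM (log2 fold change -4.11 ± 0.72 (SE), adjusted p = 0.0166). The groups were far apart for both. The list's summed CPM was 37096, 32952, 46715 and 42311 in GFP+ and 53900.2, 58888, 46376 and 57959 in GFP-. The sum was lower in GFP+ in 3 of 4 mice and nearly level in the i.c.v. female. The unscaled share of UMIs was 3.25%, 2.82%, 4.51% and 3.91% against 6.09%, 6.83%, 4.8% and 6.28%, and in deep cells of the i.c.v. female it was 4.88% in GFP+ and 4.66% in GFP-. The median was -0.72 in deep cells and -1.18 in shallow ones. Disease-associated genes had 10 higher and 4 lower of 33. The higher members were Apoe, Axl, Igf1, Lilrb4a, Cd63, Gpx3, Timp2, B2m, Ctsb and Cd68, and the lower ones Csf1, Cd9, Ctsl and Cst7. Trem2, the lipid receptor upstream of this state, did not pass (log2 fold change 0.12 ± 0.13 (SE), adjusted p = 0.511). The median was 0.54 over all cells and -0.14 in shallow cells. Cell cycle genes had 2 higher and 2 lower of 47, and apoptosis genes 5 and 7 of 40.

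The paired difference varied with the route of dosing for a smaller set, with 2 mice per route. The i.v. GFP+ libraries were also deeper and held more cells of other types than the i.c.v. ones. The part of depth and cell mix in this was not tested beyond the sums below. The interaction of fraction and route passed for 550 of 11756 genes (4.68%), 497 with a smaller or more negative difference after i.c.v. dosing and 53 the reverse. Of the 550, 189 were also called between the fractions. Ribosomal proteins supplied 52 and oxidative phosphorylation genes 24, and the C-type lectin and class II lists 9 each. In deep cells and in shallow cells alike, 0 ribosomal and 0 oxidative phosphorylation genes passed. The lectin list had 2 in deep and 1 in shallow cells, and the class II list 1 and 5. Without cells of other types, 21 ribosomal, 1 oxidative phosphorylation, 10 lectin and 8 class II genes passed. Rps28 moved by -1.32 ± 0.16 (i.c.v. minus i.v., SE; adjusted p = 0.0103), with GFP+ well above GFP- in the i.v. mice and less so in the i.c.v. mice. Adamts1, a secreted matrix protease, moved by 2.54 ± 0.31 (adjusted p = 0.0106), and its fall in GFP+, from 375, 190.3, 229 and 193 CPM to 19.5, 19.98, 105 and 75.2 CPM, was deeper after i.v. dosing. Ms4a4c moved by -2.36 ± 0.32 (adjusted p = 0.0148), from a large rise in i.v. mice to 28.1 against 24.6 CPM in the i.c.v. female.

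Markers of blood cells moved with route as well. All 7 tested monocyte markers and 7 of 8 tested neutrophil markers had a route-dependent difference. Their summed level was 344 and 229 CPM for monocyte markers in the i.v. GFP+ libraries, 2.46 and 4.27 CPM in the i.c.v. GFP+ libraries, and 20.6 to 145 CPM in GFP-. Neutrophil markers summed to 1844 and 3753 CPM, 1.88 and 8.15 CPM, and 52.4 to 5678 CPM. In the i.c.v. GFP+ libraries both lists were near 0. The part of monocyte markers in the route difference was not tested, because the fit that follows removed no cells for monocyte markers. The part of neutrophil markers was not tested beyond that fit. Without cells that held at least 3 markers of a non-macrophage type other than monocytes, the interaction passed for 305 genes. Of these, 271 were among the 550. The interaction passed for 57 genes in deep cells and 24 in shallow ones. The number moved with single mice too, to 202 without the i.v. female, 213 without the i.v. male, 355 without the i.c.v. female and 1506 without the i.c.v. male.

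**Figure D5:**
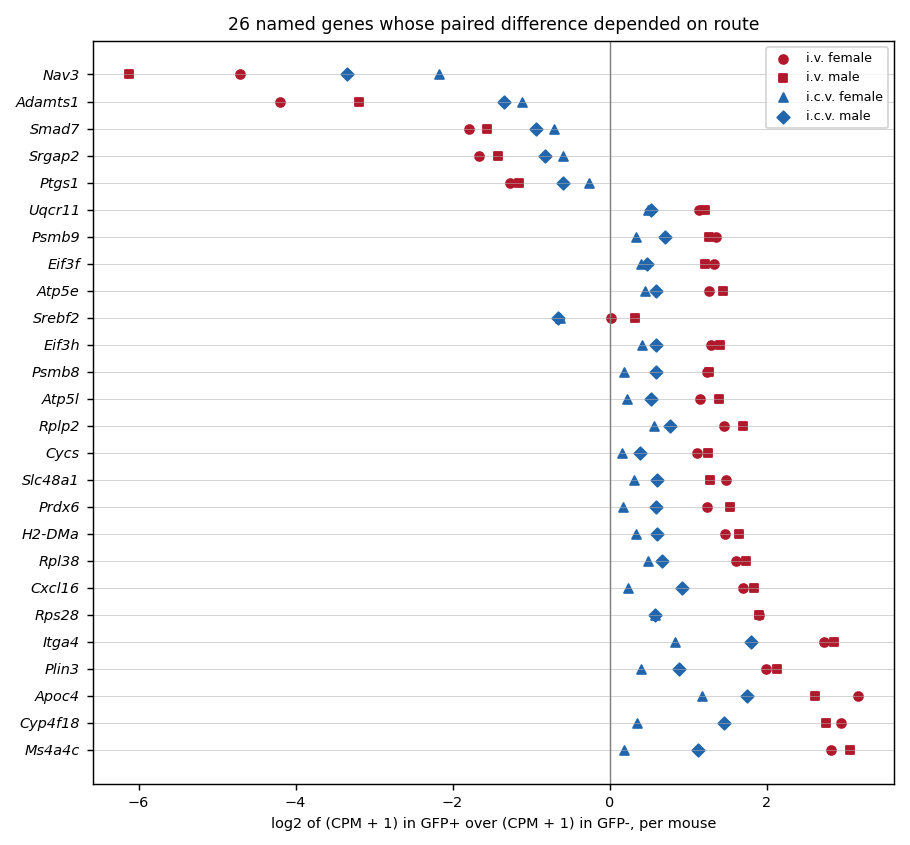
Log2 ratio of CPM + 1 in GFP+ over CPM + 1 in GFP- for each mouse (x axis) and each of the 26 named genes (y axis) whose paired difference depended on route, with i.v. mice in red and i.c.v. mice in blue. For each gene the 2 i.v. mice lie apart from the 2 i.c.v. mice, and for 25 of the 26, all but Srebf2, the 4 mice share a direction.

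Set beside the single libraries of naive microglia and naive peripheral blood, which have no replicate and held 1274 and 341 kept cells, the lower genes leaned to naive microglia and the higher genes to blood. The median kept cell had 425 UMIs in naive microglia and 6875 in blood, and 3.92% and 91.2% of cells had at least 2000 UMIs. At least 3 B cell markers were detected in 35.2% of blood cells. The part of depth and cell mix in this lean was not tested. Among genes with at least 10 CPM in either naive library, naive microglia exceeded peripheral blood at least 2-fold in 51.1% of the lower genes, 8.72% of the higher genes and 20.4% of all genes. Blood exceeded microglia at least 2-fold in 17.9% of the higher genes, 3.70% of the lower genes and 11.5% of all. Most of the higher genes were thus not blood-enriched by this measure. CPM values of the naive libraries carry no TMM factor. Cxcr4 had 10.1 CPM in naive microglia and 139 CPM in blood, and Itga4 46.6 and 425 CPM. Apoe had 8144 CPM in naive microglia and 1610 CPM in blood, and Axl 58.7 and 9.12 CPM, so that these genes rose in GFP+ without being blood-enriched. The lower genes spanned a median of 43.0 kb of genome, against 13.97 kb for the higher genes and 24.04 kb for all tested protein-coding genes. The part of gene span in the calls was not tested.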

How the data were processed

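Brain macrophages of 4 transplanted mice were profiled as 1 GFP+ and 1 GFP- single-cell library per mouse (10x 3' chemistry). The deposited values are UMI counts per gene and barcode, without normalization. The submitters' processing notes name Cell Ranger and genome build mm10, and the headers of the deposited matrices give version 3.1.0. Counts were summed per library over barcodes with 200 genes or more and no more than 10% of mitochondrial UMIs. No doublet caller was run. An alternative left out cells with at least 3 markers of a non-macrophage type other than monocytes. Genes kept by edgeR's default filter were compared with edgeR 4.0.16 (TMM, quasi-likelihood F test, mouse as a block, Benjamini-Hochberg adjustment, adjusted p threshold of 0.05), in R 4.3.3, and a second model added the interaction of fraction and route. CPM uses TMM-scaled library sizes in the treated libraries and unscaled library totals in the naive ones.

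The 2 libraries of a mouse come from 1 brain, which pairs them, and the correlations of their deviations from the group means were 0.20, -0.28, -0.33 and 0.01. On simulated counts over 11628 genes, 98.5% of 200 genes changed 4-fold between the fractions were recovered, and for the interaction with route, over 11635 genes, 65% of 200. The simulated counts had the same dispersion for all genes and a mouse effect shared by both fractions. Called genes had a median absolute log2 fold change of 0.66 when higher and 0.82 when lower. Recovery of changes that small was not tested. Genes were named by rule: the 12 largest called changes in each direction with a mean of 20 CPM or more in the higher group and 1 direction in 4 of 4 mice, leaving out the transgene, Y-linked genes, Xist and Tsix, and in each list up to 4 such members, or, with fewer than 2, the 2 most expressed. Members and lists were chosen with earlier results of these data known. Alternatives covered the cell filter, other cell types, 500 UMIs drawn per cell, upper-quartile scaling, DESeq2 1.42.0, no filter on low counts, no block and leaving out each mouse. Sums over cells with at least 2000 UMIs or with fewer, and the interaction without cells of other types, were added after seeing the data. Promoter sequences are from RefSeq on GRCm38, the build of mm10. The naive microglia and blood libraries, 1 each, were used for description alone, and the other 2 libraries of the series were not used here. A few genes that the rule named are not reported here.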

Additional observations from a re-analysis of the deposited data

Results flagged for a closer look

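Among the genes named by rule, 25 of 412 sets of 4 libraries held a library that stood apart from the others by Dixon's test, or 6.07%, where chance gives about 1 in 20. The libraries of the i.v. female and i.c.v. female held 22 of them. The i.v. female's GFP+ library stood apart for Sall3 (3.25 CPM), Nr4a1 (181 CPM), Csf3r (75.2 CPM), Lrp5 (13.3 CPM), Cxcr4 (138 CPM), Edem1 (61.6 CPM) and Egr1 (996 CPM), and that mouse's GFP- library for Rora (12.1 CPM), Clock (63.7 CPM) and Egr1 (1408 CPM). The i.c.v. female's GFP- library stood apart for Vegfa (279.8 CPM), H2-M3 (82.1 CPM), H2-D1 (1318 CPM), Itgal (17.8 CPM), Pla2g7 (105 CPM), Slc38a6 (53.4 CPM) and Ctsf (113 CPM), and that mouse's GFP+ library for Il18bp (23.6 CPM), Vegfa (482 CPM), Itgam (413 CPM), Ifi203 (172 CPM) and Myo18b (1.41 CPM). Single cases were Rsad2 in the i.v. male's GFP+ library (78.4 CPM), Dusp7 in the i.c.v. male's GFP+ library (43.0 CPM) and Itgam in the i.v. male's GFP- library (584 CPM). Itgam encodes CD11b, on which the cells were sorted. Egr1, an immediate-early gene, and Vegfa stood apart in both fractions of 1 mouse.

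The difference between GFP+ and GFP- depended on route for 26 named genes by the interaction test of edgeR. As log2 fold change after i.c.v. dosing minus that after i.v. dosing, 5 genes were positive: Nav3 (2.65), Adamts1 (2.54), Smad7 (0.85), Srgap2 (0.83) and Ptgs1 (0.78), all lower in GFP+. Negative values were those of the antigen presentation genes H2-DMa (-1.09), Psmb8 (-0.87) and Psmb9 (-0.80), the membrane and signal genes Ms4a4c (-2.36), Itga4 (-1.52) and Cxcl16 (-1.20), and the lipid and heme genes Cyp4f18 (-2.05), Apoc4 (-1.69), Plin3 (-1.52), Slc48a1 (-0.95) and Srebf2 (-0.84). The mitochondrial and antioxidant genes Prdx6 (-1.02), Cycs (-0.92), Atp5l (-0.90), Atp5e (-0.84) and Uqcr11 (-0.67) and the translation genes Rps28 (-1.32), Rpl38 (-1.09), Rplp2 (-0.91), Eif3h (-0.85) and Eif3f (-0.83) were negative as well.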

How the results depend on the processing

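Counts of 1605 higher and 1612 lower genes became 522 and 624 with 500 UMIs drawn per cell, 313 and 596 in cells with at least 2000 UMIs, and 898 and 904 in cells with fewer. Much of the higher set turned in those shallower cells. Of 1510 higher genes tested there, 897 kept their sign and 4 were called lower, and 424 of the 898 calls were shared with the main fit. Of 1471 lower genes tested there, 1313 kept their sign. Leaving out 1 mouse gave 6 to 2167 higher and 70 to 2001 lower genes; the fits without 1 mouse had fewer samples. The other alternatives kept both counts within 1.5 times, with 1407 to 2105 higher and 1452 to 2090 lower. Without the replicate block, 1951 genes were higher and 1869 lower, 183 of 206 named genes kept their call and 21 lost it. Without the i.v. female, the i.v. male or the i.c.v. male, 176, 161 and 187 of the 206 lost their call, against 6 without the i.c.v. female. For the 550 route-dependent genes the number was 1676 with no filter on low counts, 189 with no replicate block, 202 to 1506 with 1 mouse left out, 305 without cells of other types, 57 in deep cells and 24 in shallow cells; the cause was not tested. Named genes turned direction as follows (log2 fold change). With 500 UMIs drawn, Pdia3 was -0.026 and the Ebp log2 fold change -0.023. Ebp and mt-Co3 were not called over all kept cells. The mitochondrial gene mt-Co3 was -0.21 over all barcodes, -0.034 to 0.16 with 1 mouse left out and -0.055 in deep cells. In shallow cells Clock was 0.20, Traf5 0.083, Ulk1 0.017, Ptpn18 -0.10, Fcer1g -0.25, Psmb8 -0.21, Cyba -0.39, Sdhb -0.16, Atp5e -0.19, Uqcr11 -0.087, Ebp -0.63, Npc2 -0.15, Gabarap -0.25, Map1lc3b -0.16, Pdia3 -0.34, Psmg4 -0.037, Psme2 -0.14, Eif3h -0.10, Eef1b2 -0.42, Tpt1 -0.13, Eif3f -0.21, Cdk4 -0.046 and Cycs -0.026. Genes at a few CPM rest on few UMIs in the smaller libraries, and a difference that did not pass there may lie under what this depth can show.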
